A study of Mus musculus with 8 samples.

Results

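Synaptic vesicle, receptor and channel genes were followed in 8 polyadenylated RNA libraries of mouse 46C cells, a line of embryonic stem cells whose strain is labelled C57BL/6. The set holds 30 genes, found by their exact symbol among 21069 features at day 5 and 19011 at day 0. All 30 were found at day 5 and 29 at day 0. Slc17a6 was not found at day 0 and was not analysed there. There were 4 lines. WT is the wild type, LincNDIME_KO (here KO) lacks the long noncoding RNA NDIME by its label, shMef2c carries a short hairpin RNA directed at Mef2c, and shCtrl carries its control hairpin. Day 0 cultures were stem cells kept with LIF in serum on irradiated embryonic fibroblasts, and day 5 cultures were neural progenitors obtained by re-aggregating the cells in serum replacement medium. The sources used here do not say whether any of these lines is a single clone. Each group is 1 library, so no difference has a replicate check, no p-value is given, and every statement describes these libraries.

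Neurons release transmitter from small vesicles that dock at the membrane and fuse with it. Fusion is driven by SNARE proteins (Snap25, syntaxin and synaptobrevin) and is timed by complexins and by calcium-sensing synaptotagmins such as Syt1. On the receiving side, scaffold proteins hold glutamate receptors in place, and neurexins and neuroligins join both sides across the cleft. In stem cells and many other non-neuronal cells the repressor REST, with its partner CoREST, is known to keep a number of such genes silent. Most of the set is known for its part in mature neurons.

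Levels were low in every library. The day 5 values are FPKM and the day 0 values RPKM, both reads scaled by gene length and library size. They come from tables normalized separately. Of the 30 members, 7 (Syn2, Syt1, Nlgn1, Nrxn3, Gria1, Gad2 and Slc32a1) stayed below 1 in every library, 23 reached 1 in at least 1 library, and 10 did so in all 8. At day 5, 17 members were at 1 FPKM or more in WT, 16 in KO, 22 in shCtrl and 16 in shMef2c. Their summed level was 105.3 FPKM in WT, 85.7 in KO, 133.0 in shCtrl and 63.8 in shMef2c. The median level was 1.65, 1.79, 2.17 and 1.15 FPKM in that order, so KO was below WT in the sum but not in the median. shCtrl thus held the most and shMef2c the least, and the control libraries themselves differed. At day 0 the 29 members summed to 78.7 RPKM in WT, 56.3 in KO, 63.0 in shCtrl and 64.0 in shMef2c. Syt11 had the highest level of the set in all 4 day 5 libraries, followed by Nlgn2 in WT, shCtrl and shMef2c and by Vamp2 in KO.

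**Figure D1:**
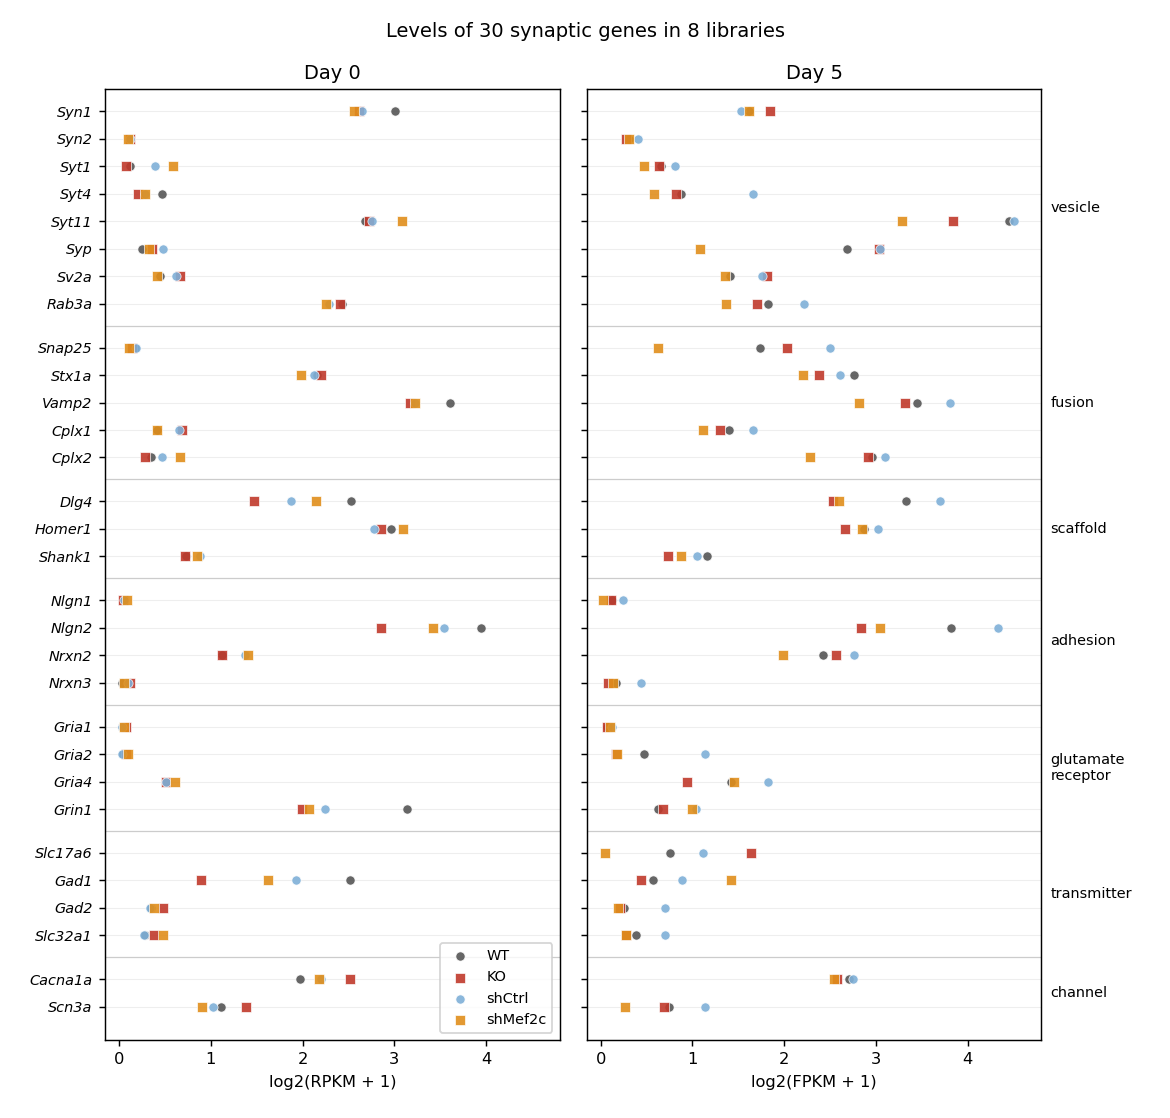
Levels of the 30 members by role at day 0 (log2 of RPKM + 1) and day 5 (log2 of FPKM + 1), 1 point per library, circles for WT and shCtrl and squares for KO and shMef2c. At day 5 the shMef2c point lies lowest for 14 of the 23 members that reached 1 FPKM in a day 5 library, and the shCtrl point highest for 17. These positions were not counted over all features, so they are not read as particular to the set. Slc17a6 has no day 0 points.

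The libraries held 25996204 to 26834802 reads at day 5 and 20312032 to 20883674 at day 0. Mef2c, the target of the hairpin, was at 0.45 FPKM in WT, 0.10 in KO, 0.50 in shCtrl and 0.12 in shMef2c at day 5. At day 0 the library labelled shMef2c held 0.37 RPKM against 0.16 in shCtrl, which goes against its label, so no direction at day 0 is read as an effect of the hairpin. The day 5 label of neural progenitor cells was set beside 7 progenitor markers. All 7 were at 1 FPKM or more in WT, KO and shCtrl and 5 in shMef2c, where Pax6 stood at 0.21 FPKM and Hes5 at 0.57. In the day 0 stem cells 4 or 5 of the 7 were also at 1 RPKM or more, with sums of 466.3 to 574.5 RPKM. The cut at 1 alone therefore cannot check the label. The progenitor markers summed to 659.2 FPKM in WT, 246.0 in KO, 705.5 in shCtrl and 224.1 in shMef2c. Naive pluripotency markers (7 genes) ran the other way, with sums of 732.0, 1908.2, 495.8 and 2401.2 FPKM. The 2 perturbed lines therefore stood apart from both controls in these 2 sums at day 5, which does not hold for each marker. Sox2, a progenitor marker, was at 98.37 FPKM in WT, 103.96 in KO, 103.15 in shCtrl and 118.17 in shMef2c. In bulk RNA, fewer cells of a type and less RNA per cell cannot be told apart.

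Rest, which encodes the repressor REST, was at 7.01 FPKM in WT, 13.28 in KO, 6.69 in shCtrl and 12.97 in shMef2c at day 5. Both perturbed lines lay above both controls, as they did for 26.4% of the 13985 features that reached 1 FPKM at day 5. As a ratio of read shares, KO over WT was 1.89 (exact 95% counting interval 1.73 to 2.07) and shMef2c over shCtrl 1.94 (1.77 to 2.12). At day 0 Rest was at 23.89 RPKM in WT, 17.54 in KO, 20.71 in shCtrl and 24.94 in shMef2c. The corepressor gene Rcor1 (CoREST) had log2 ratios of 0.16 and -0.42 in the same day 5 pairs, and Rcor2 had -0.34 and -0.16. None of the 9 genes of REST and its corepressors passed 2-fold at day 5.

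Because REST binds a long DNA element, promoters were searched for parts of it. The 3 shown here (Gria2, Gad2 and Syn1) come from the 4 members in which 1 of a pair of such parts was found. The stretches are the 250 bases before the start site, from RefSeq on GRCm38.p6, a build other than that of the reads, and read 5′ to 3′ on the gene's strand. Gria2 lies at chr3:80802836-80803085 (minus strand), Gad2 at chr2:22622077-22622326 (plus strand) and Syn1 at chrX:20920919-20921168 (minus strand). Capitals mark a match to AGCACCNNGGACAG in Gria2 (reverse strand, first base at -170 from the start site) and Gad2 (-163), and to TTCAGCACC in Syn1 (-232).
Gria2: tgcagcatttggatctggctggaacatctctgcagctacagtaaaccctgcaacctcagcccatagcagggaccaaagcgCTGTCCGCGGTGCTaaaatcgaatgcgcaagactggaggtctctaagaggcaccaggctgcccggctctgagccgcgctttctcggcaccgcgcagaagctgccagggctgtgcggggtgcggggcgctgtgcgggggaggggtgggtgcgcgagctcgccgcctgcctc
Gad2: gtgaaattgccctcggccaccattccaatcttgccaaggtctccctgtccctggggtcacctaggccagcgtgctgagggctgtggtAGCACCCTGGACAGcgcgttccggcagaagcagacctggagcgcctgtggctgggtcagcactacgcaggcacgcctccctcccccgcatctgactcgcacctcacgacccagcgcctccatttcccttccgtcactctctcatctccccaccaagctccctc
Syn1: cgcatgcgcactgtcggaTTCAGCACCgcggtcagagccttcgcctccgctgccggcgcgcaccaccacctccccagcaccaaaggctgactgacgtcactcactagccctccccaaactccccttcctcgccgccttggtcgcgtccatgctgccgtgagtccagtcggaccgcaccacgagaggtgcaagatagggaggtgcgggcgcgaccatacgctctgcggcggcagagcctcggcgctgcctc
Of the 30 members, 22 matched a promoter window of 300 bases (250 before to 50 after the start), and some have several windows. Over all 32851 windows AGCACCNNGGACAG was present in 0.0517% and TTCAGCACC in 0.371%. Members with the first were Gad2 and Gria2, and with the second Nlgn1 and Syn1. These 2 strings were chosen after their matches were seen, from 18 strings searched on both strands. The other REST strings overlap them. CAGCACCNNGGACAG (0.0365% of windows), CAGCACCNNNGACAG (0.0396%) and GGACAGCGCC (0.137%) matched 0 members. GCACCNNGGACAG (0.0944%), AGCACCNNGGAC (0.128%) and GGACAGC (6.56%) each matched Gad2 and Gria2 again, and CAGCACC (7.14%) matched Dlg4, Nlgn1 and Syn1. The full motif of MEF2, the factor family of Mef2c, was in 3.19% of windows and 0 members, and its looser form CTANNNNTAG in 3.69% and in Nlgn1 and Slc32a1. Of the remaining strings, TATAAA (13.6%) matched 1 member, CCAAT (37.4%) 6, TGACGTCA (1.79%) 1, GGGCGG (35.7%) 14, CACGTG (7.15%) 1, CATCTG (17.2%) 3 and TTTGCAT (4.63%) 2. A match is a description of letters only, and shows no binding.

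Lower levels in shMef2c than in shCtrl were the most frequent pattern at day 5. A gene was counted as lower or higher at 2-fold or more on log2((FPKM + 1)/(FPKM + 1)), if its mean over the pair was 1 or more. By this rule 6 of 19 members were lower in shMef2c (Syp, Snap25, Nlgn2, Syt11, Dlg4 and Syt4) and 0 were higher, against 4.78% of 13041 features lower and 4.49% higher. The members' median log2 ratio was -0.77, and that of all features -0.05. Members filtered in this way had to be expressed in 1 of the pair, so the other 11 are given by their reads. By read shares, 25 of 30 members had a counting interval wholly below 1, 1 (Gad1) above it and 4 covered it (Syn1, Syn2, Gria1 and Grin1). Over all features with reads, 32.6% had an interval below 1 and 25.9% above. With WT in place of shCtrl as the control, 3 of 18 members (Syp, Syt11 and Snap25) were lower by 2-fold, 0 were higher and the median was -0.45. All features gave 3.22% lower and 3.99% higher with that control, and a median of -0.03.

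KO differed less from WT. Of 17 members tested, 0 were lower and 0 higher by 2-fold, against 3.26% of 12832 features lower and 4.05% higher, and the median log2 ratio was -0.12 (all features 0.00). Nlgn2 lay just inside the limit at -0.98, and Slc17a6 was at 0.88. With a pseudocount of 0.1 they passed it, at -1.08 and 1.49, where 716 of all 12832 features were lower and 743 higher. By read shares 8 members had an interval below 1 (27.7% of all features) and 5 above 1 (28% of all features). The 8 were Syt11, Stx1a, Dlg4, Homer1, Shank1, Nlgn2, Gria2 and Gria4, and the 5 were Syn1, Syp, Sv2a, Nrxn2 and Slc17a6. The first count is near the share of all features and the second is under it, so no pattern by role is read from them. With shCtrl as the control, Nlgn2 and Dlg4 were lower by 2-fold (2 of 18), 0 were higher and the median was -0.36. All features gave 5.52% lower and 4.65% higher with that control.

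The yardstick is the pair of controls. shCtrl over WT had 0 of 18 members lower and 0 higher by 2-fold (0.272% and 0.724% of 12845 features), but a median log2 ratio of 0.34 against 0.02 for all features. In read shares 21 members had an interval above 1 and 1 (Stx1a) below, where all features gave 24.6% above and 17.5% below. So the set was higher in shCtrl than in WT at day 5. This pair shares WT with the KO comparison and shCtrl with the shMef2c comparison. Of the 23 members that reached 1 FPKM at day 5, 14 had both KO and shMef2c below both controls (30.5% of all 13985 such features) and 1, Syn1, had both above (26.4% of features). Among the 14, Syt4, Shank1, Gria2 and Scn3a reached 1 FPKM only in control libraries, so the filter itself favours this order for them. The count of 14 does not depend on which control is used, but it is a count of order only. For Syt4, Rab3a, Vamp2, Cplx1, Cplx2, Cacna1a and Scn3a among them, the KO over WT counting interval covered 1.

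**Figure D2:**
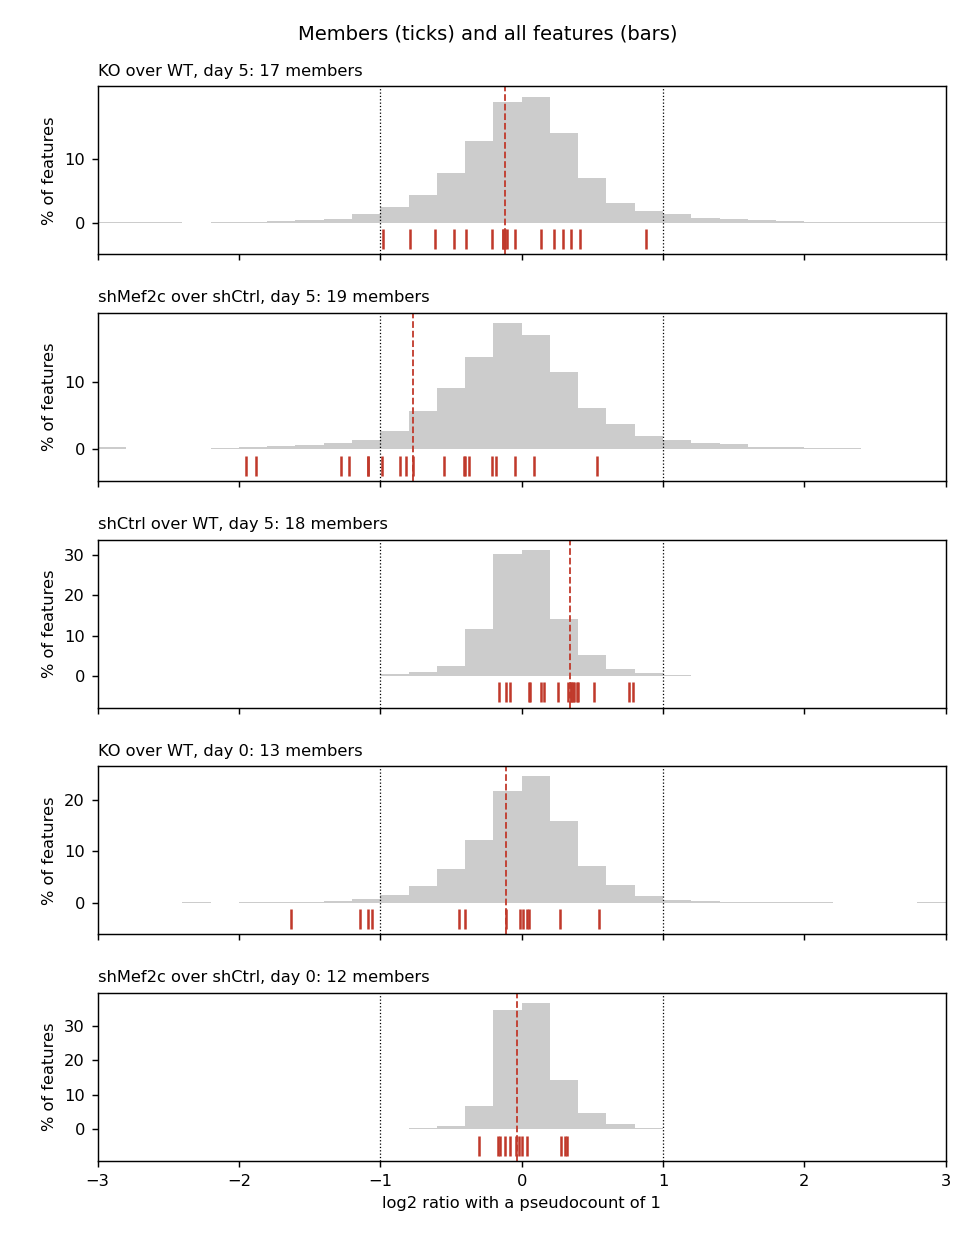
Distribution of log2 ratios (x axis, pseudocount of 1) over all tested features (grey bars, percent of features, values beyond the axis in the end bars) with the tested members as red ticks and their median as a dashed line, in 5 comparisons. Dotted lines mark 2-fold. In shMef2c over shCtrl at day 5 the members' median is -0.77 and 6 ticks lie past 2-fold, in KO over WT at day 5 the median is -0.12 and no tick does.

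**Figure D3:**
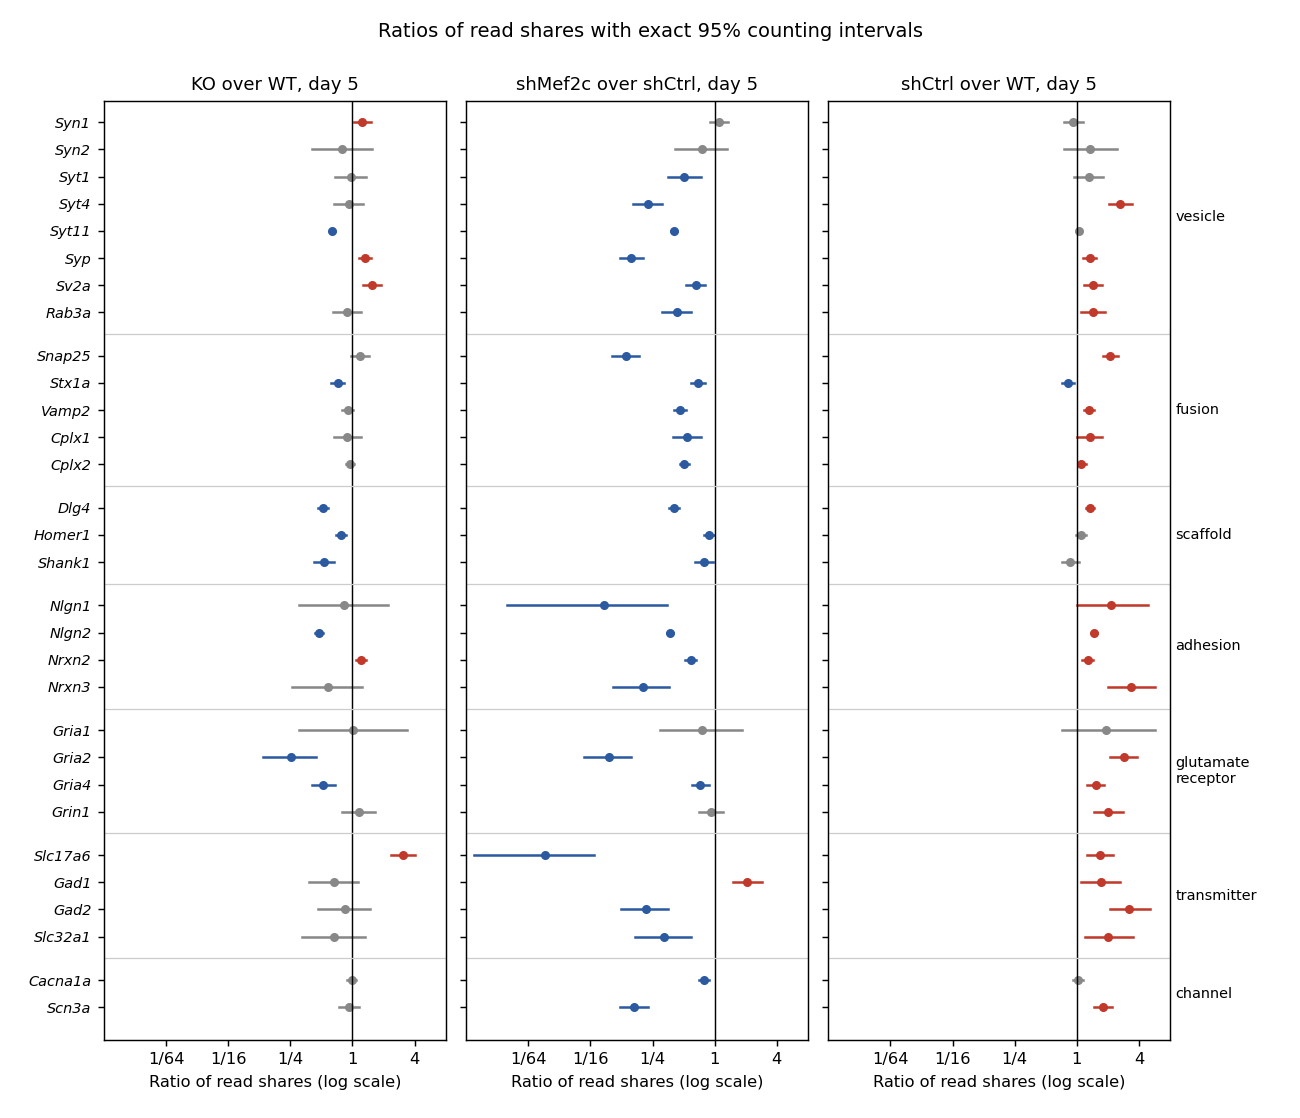
Ratio of read shares (points, log axis) with its exact 95% interval for counting error (lines) for each member at day 5, blue where the interval lies below 1, red above 1 and grey where it covers 1. In shMef2c over shCtrl 25 members are blue and 1 is red, in KO over WT 8 are blue and 5 red, and in shCtrl over WT 21 are red and 1 is blue.

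Among vesicle genes, Syp, Syt11 and Syt4 were lower by 2-fold in shMef2c than in shCtrl. Syp, which encodes the abundant vesicle membrane protein synaptophysin, was at 5.44 FPKM in WT, 7.19 in KO, 7.21 in shCtrl and 1.12 in shMef2c. Only the shMef2c library was low, with a read share 0.156 times that in shCtrl (counting interval 0.12 to 0.2), while KO lay at 1.32 times WT (1.15 to 1.52). Syt4, a synaptotagmin induced by activity, was at 0.83 FPKM in WT, 0.76 in KO, 2.17 in shCtrl and 0.49 in shMef2c. Here shCtrl stood above the other 3 libraries, and shMef2c over shCtrl was 0.226 (0.163 to 0.309) while shCtrl over WT was 2.62 (2.03 to 3.41). Syt11, a synaptotagmin also expressed outside neurons, was at 20.82 FPKM in WT, 13.30 in KO, 21.67 in shCtrl and 8.76 in shMef2c. Both perturbed lines were below both controls, by a read share ratio of 0.638 (0.599 to 0.68) for KO and 0.404 (0.376 to 0.434) for shMef2c. The controls differed by 1.04 (0.986 to 1.1).

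Syn1, the synapsin that tethers vesicles to the cytoskeleton, did not follow these genes. It was at 2.06 FPKM in WT, 2.58 in KO, 1.89 in shCtrl and 2.07 in shMef2c, so both perturbed lines were above both controls, shMef2c and WT differing only in the second decimal. Sv2a, a vesicle glycoprotein, was highest in KO, at 1.65 FPKM in WT, 2.52 in KO, 2.38 in shCtrl and 1.55 in shMef2c. Rab3a, the GTPase of vesicle docking, was at 2.54, 2.26, 3.65 and 1.57 FPKM in the same order, lowest in shMef2c. Syn2 (0.21 to 0.33 FPKM, 18 to 30 reads) and the calcium sensor Syt1 (0.39 to 0.75 FPKM, 48 to 92 reads) were scarce in all 4 libraries. For Syt1 the read share in shMef2c was 0.51 times that in shCtrl (0.352 to 0.73).

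Of the fusion genes, Snap25 had the largest difference. It encodes the SNARE protein of the plasma membrane and was at 2.34 FPKM in WT, 3.07 in KO, 4.65 in shCtrl and 0.54 in shMef2c. As with Syp, only the shMef2c library lay below both controls. The read share in shMef2c was 0.138 times that in shCtrl (0.102 to 0.183), and KO over WT was 1.18 (0.966 to 1.44). The controls differed as well, with shCtrl over WT at 2.12 (1.78 to 2.53). Vamp2, the vesicle SNARE synaptobrevin, was at 9.91 FPKM in WT, 8.97 in KO, 12.98 in shCtrl and 6.02 in shMef2c. Its log2 ratio for shMef2c over shCtrl was -0.99, just inside the 2-fold limit. Stx1a, syntaxin of the plasma membrane, was at 5.79 FPKM in WT, 4.19 in KO, 5.07 in shCtrl and 3.61 in shMef2c, and was the member lower in shCtrl than in WT by its interval. The complexins were lowest in shMef2c as well. Cplx2 was at 6.78 FPKM in WT, 6.54 in KO, 7.57 in shCtrl and 3.85 in shMef2c, and Cplx1 ranged from 1.17 in shMef2c to 2.17 in shCtrl. All 5 fusion genes were thus below shCtrl in shMef2c, with 1 (Snap25) past 2-fold. Over all tested features 54.7% had a log2 ratio below 0 in this pair, and 4.78% were lower by 2-fold.

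Among the scaffold and adhesion genes, Nlgn2 and Dlg4 were low in both perturbed lines. Nlgn2, neuroligin of inhibitory synapses, was at 13.07 FPKM in WT, 6.14 in KO, 19.03 in shCtrl and 7.23 in shMef2c. Both perturbed lines lay below both controls, with read share ratios of 0.475 (0.438 to 0.516) for KO and 0.368 (0.342 to 0.396) for shMef2c. The controls themselves differed by 1.48 (1.39 to 1.57). Dlg4, the postsynaptic scaffold PSD-95, was at 9.02 FPKM in WT, 4.79 in KO, 11.93 in shCtrl and 5.06 in shMef2c. Its order was the same as for Nlgn2, and its ratios were 0.52 (0.463 to 0.583) and 0.402 (0.361 to 0.448). The scaffold Shank1 was lowest in KO, at 1.24 FPKM in WT, 0.66 in KO, 1.07 in shCtrl and 0.84 in shMef2c. Homer1, which links receptors to calcium stores, varied least of this group, from 5.31 FPKM in KO to 7.14 in shCtrl.

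Nrxn2, the neurexin with the highest level here, was at 4.37 FPKM in WT, 4.92 in KO, 5.75 in shCtrl and 2.97 in shMef2c, so only shMef2c was below the controls. Nrxn3 (0.06 to 0.36 FPKM, 12 to 68 reads) and Nlgn1 (0.02 to 0.18 FPKM, 2 to 23 reads) were highest in shCtrl and scarce throughout. The shMef2c library held 2 reads of Nlgn1, a ratio of 0.0849 to shCtrl (0.00971 to 0.344). For Nrxn3 the ratio was 0.201 (0.104 to 0.361).

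Glutamate receptor genes were low, and Gria2 differed most. Gria2 encodes the AMPA receptor subunit that limits calcium entry. It was at 0.39 FPKM in WT, 0.12 in KO, 1.20 in shCtrl and 0.13 in shMef2c, from 64, 16, 176 and 17 reads. Both perturbed lines lay below both controls, with ratios of 0.253 (0.137 to 0.443) for KO and 0.0943 (0.0537 to 0.155) for shMef2c, yet shCtrl was 2.84 times WT (2.12 to 3.84). Gria4, another AMPA subunit, was at 1.67 FPKM in WT, 0.92 in KO, 2.53 in shCtrl and 1.74 in shMef2c, so KO alone was below both controls. Grin1, the subunit common to NMDA receptors, was at 0.54 FPKM in WT, 0.60 in KO, 1.06 in shCtrl and 0.99 in shMef2c. It split the hairpin lines from the others, and neither perturbed line differed from its own control beyond counting error. Gria1 had 7 to 13 reads per library, too few to tell the libraries apart.

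The transmitter genes did not move together. Slc17a6, the vesicular glutamate transporter VGLUT2, was at 0.69 FPKM in WT, 2.12 in KO, 1.16 in shCtrl and 0.03 in shMef2c, from 79, 239, 129 and 3 reads. KO was the highest library and shMef2c the lowest, so the perturbed lines lay on opposite sides of both controls. KO over WT was 3.06 (2.37 to 4.0) and shMef2c over shCtrl 0.0227 (0.00462 to 0.0679). For Gad1, which makes the transmitter GABA, the perturbed lines changed places, at 0.48 FPKM in WT, 0.36 in KO, 0.85 in shCtrl and 1.67 in shMef2c. It was the member higher in shMef2c, by 2.08 (1.52 to 2.87). Its partner enzyme Gad2 was at 0.19 FPKM in WT, 0.16 in KO, 0.63 in shCtrl and 0.14 in shMef2c. Slc32a1, the vesicular GABA transporter, was at 0.31, 0.21, 0.63 and 0.21 FPKM in that order. For both, shCtrl stood above the other 3 libraries, and shMef2c over shCtrl was 0.215 (0.125 to 0.351) and 0.326 (0.169 to 0.595).

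The channel genes differed from one another. Cacna1a, the pore subunit of the P/Q-type calcium channel, was nearly level, at 5.51 FPKM in WT, 4.95 in KO, 5.74 in shCtrl and 4.83 in shMef2c. Scn3a, an early sodium channel, was at 0.67 FPKM in WT, 0.61 in KO, 1.19 in shCtrl and 0.20 in shMef2c. Its ratio of shMef2c to shCtrl was 0.166 (0.121 to 0.225), while KO over WT was 0.924 (0.738 to 1.15). Between the controls, shCtrl over WT was 1.79 (1.47 to 2.17).

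Some cell type markers followed the order of the members' sum at day 5 and others did not. The 10 neuron markers summed to 314.7 FPKM in WT, 301.4 in KO, 451.5 in shCtrl and 134.2 in shMef2c, the same order of libraries as for the members' sum. The sums of the progenitor markers above and of the neuroendocrine markers below had this order too, so it is not particular to neuron markers. In shMef2c over shCtrl 7 of the 9 tested neuron markers were lower by 2-fold and their median log2 ratio was -2.66. Dcx, a marker of young neurons, was at 7.09 FPKM in shCtrl and 0.15 in shMef2c. In KO over WT 1 of 9 was lower and the median was -0.45. The part of these markers in the members' differences was not tested. No neuron marker was at 0 at day 5. Of 5 glia markers 1 reached 1 FPKM in WT, shCtrl and shMef2c and 2 in KO, and S100b was at 0.00 FPKM in shCtrl and 0.02 in the others. Neuroendocrine cells also use vesicle genes. Of 6 such markers 4 were found, with sums of 6.8 FPKM in WT, 5.7 in KO, 14.2 in shCtrl and 2.8 in shMef2c, and Ins2 was at 0.00 FPKM in WT. Endoderm markers (6 genes) summed to 76.2 FPKM in KO, against 8.0 in WT, 16.9 in shCtrl and 17.9 in shMef2c.

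A further list of 105 genes of the synapse and of channels, to which the 30 do not belong, shows how other genes of the pathway stood. In shMef2c over shCtrl 5 of 62 tested were lower and 0 higher, against 4.78% and 4.49% of all features. The median log2 ratio of the list was -0.32 (all features -0.05). The lowest were the vesicular monoamine transporter Slc18a2 (-1.61), the acetylcholine transporter Slc18a3 (-1.46) and the adhesion receptor Ptprd (-1.25). Among the highest were the vesicle protein gene Syngr1 (0.87) and Amph (0.61), which encodes amphiphysin. In KO over WT 4 of 58 were lower and 1 higher, against 3.26% and 4.05% of all features, and the median was 0.00. Among the lowest were the calcium channel Cacna1h (-1.15) and the kainate receptor Grik3 (-1.11), and the highest were Syngr1 (1.14), the release-site scaffold Rims1 (0.97) and Th (0.83), the enzyme of dopamine synthesis. Between the controls 0 of 63 passed 2-fold (0.272% of all features lower and 0.724% higher) and the median was 0.205. The extremes there included Grik3 (-0.60), Napa (-0.28), Dnm1 (0.94), Syt5 (0.67) and Snap91 (0.66).

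The authors' deposited tables list genes by a Poisson method that compares 1 library with another, and so compares libraries and not conditions. For KO over WT the authors' deposited table lists 3 members, Gria2 (log2 ratio -1.70), Nlgn2 (-1.09) and Slc17a6 (1.62). Of the 21069 features, the authors' deposited table lists 5.23% as lower and 5.46% as higher in KO, so 3 of 30 members is near the share of all features. For shMef2c over shCtrl the authors' deposited table lists 15 members, all lower, where 7.26% of the 21069 features are listed as lower and 5.83% as higher. Its largest ratios are those of Slc17a6 (-5.27), Gria2 (-3.21), Nlgn1 (-3.17), Snap25 (-3.11), Syp (-2.69) and Scn3a (-2.57). Several of these are members whose mean was under 1 FPKM and which the 2-fold rule above did not test.

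In stem cells at day 0, KO and WT differed in 4 members. Of 13 tested, Gad1, Grin1, Nlgn2 and Dlg4 were lower in KO by 2-fold and 0 were higher, against 1.58% and 1.35% of 12002 features, and the median was -0.11 (all features 0.03). Gad1 was at 4.72 RPKM in WT, 0.85 in KO, 2.81 in shCtrl and 2.09 in shMef2c. Grin1 was at 7.78 RPKM in WT, 2.99 in KO, 3.72 in shCtrl and 3.19 in shMef2c. Nlgn2 was at 14.37 RPKM in WT, 6.24 in KO, 10.61 in shCtrl and 9.72 in shMef2c, and Dlg4 at 4.77, 1.76, 2.65 and 3.43 RPKM. KO was the lowest library and WT the highest for all 4 genes. In shCtrl over WT the read share ratios were 0.57 (0.46 to 0.704) for Gad1 and 0.462 (0.402 to 0.531) for Grin1. They were 0.74 (0.685 to 0.799) for Nlgn2 and 0.54 (0.448 to 0.65) for Dlg4. The members' median log2 ratio in that control pair was -0.18 (all features 0.01). With shCtrl as the control, Gad1 alone was lower in KO by 2-fold (0.966% of all features). The library labelled shMef2c had 0 of 12 members lower and 0 higher than shCtrl (0.0991% and 0.132% of 12103 features), and a median of -0.03. Against WT it had 1 of 13 lower, Grin1 (0.687% of all features). Fibroblast markers (7 genes) summed to 332.8 RPKM in that library and to 183.3 to 203.4 in the other 3 day 0 libraries, and their part was not tested.

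Nlgn2 and Dlg4 lie near each other on chromosome 11 and were low in KO on both days, so the genes between them were examined after this was seen. By RefSeq gene order on GRCm38.p6, 19 genes with values on both days lie between them. In KO over WT at day 5, 17 of these were tested, 1 (Slc2a4) was lower and 0 were higher, and the median log2 ratio was -0.11. At day 0 none of 16 passed 2-fold and the median was -0.44. Between shCtrl and WT at day 0 the median of these genes was -0.39. In all, the 30 members lie on 14 chromosomes.

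Changes from day 0 to day 5 were compared within each line on ratios centred on the median of 17363 shared features, because the tables were normalized separately. In WT 5 of 17 members were higher at day 5 (15.3% of 11989 features) and 3 lower (14.7%). In KO 7 of 17 were higher (10.1% of 12015 features) and 1 lower (9.79%). In shCtrl 9 of 20 were higher and 3 lower (15.3% of 12182 features each way). In shMef2c 1 of 14 was higher and 1 lower (9.37% and 9.5% of 12129 features). Cplx2 was the member higher in all 4 lines, with centred log2 ratios of 2.59 in WT, 2.61 in KO, 2.56 in shCtrl and 1.66 in shMef2c. Syp and Snap25 were higher by 2-fold in WT, KO and shCtrl. In shMef2c Syp had 0.80 and Snap25 0.55, and neither was tested because their means were under 1.

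Some members were higher in stem cells. Grin1 was lower at day 5 in all 4 lines, by -2.53 in WT, -1.33 in KO, -1.27 in shCtrl and -1.04 in shMef2c. Syn1 and Gad1 were lower by 2-fold at day 5 in WT and shCtrl. Syn1 was at 7.06 RPKM in WT, 5.10 in KO, 5.24 in shCtrl and 4.91 in shMef2c at day 0, above its day 5 FPKM in each line. Vamp2, Homer1 and Nlgn2 did not pass 2-fold between the days in any line, and were already among the highest members in stem cells. The day 0 cultures also held feeder fibroblasts, whose 7 markers summed to 183.3 to 332.8 RPKM at day 0 and to 14.2 to 18.3 FPKM at day 5. Their part in the day 0 levels was not tested.

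**Figure D4:**
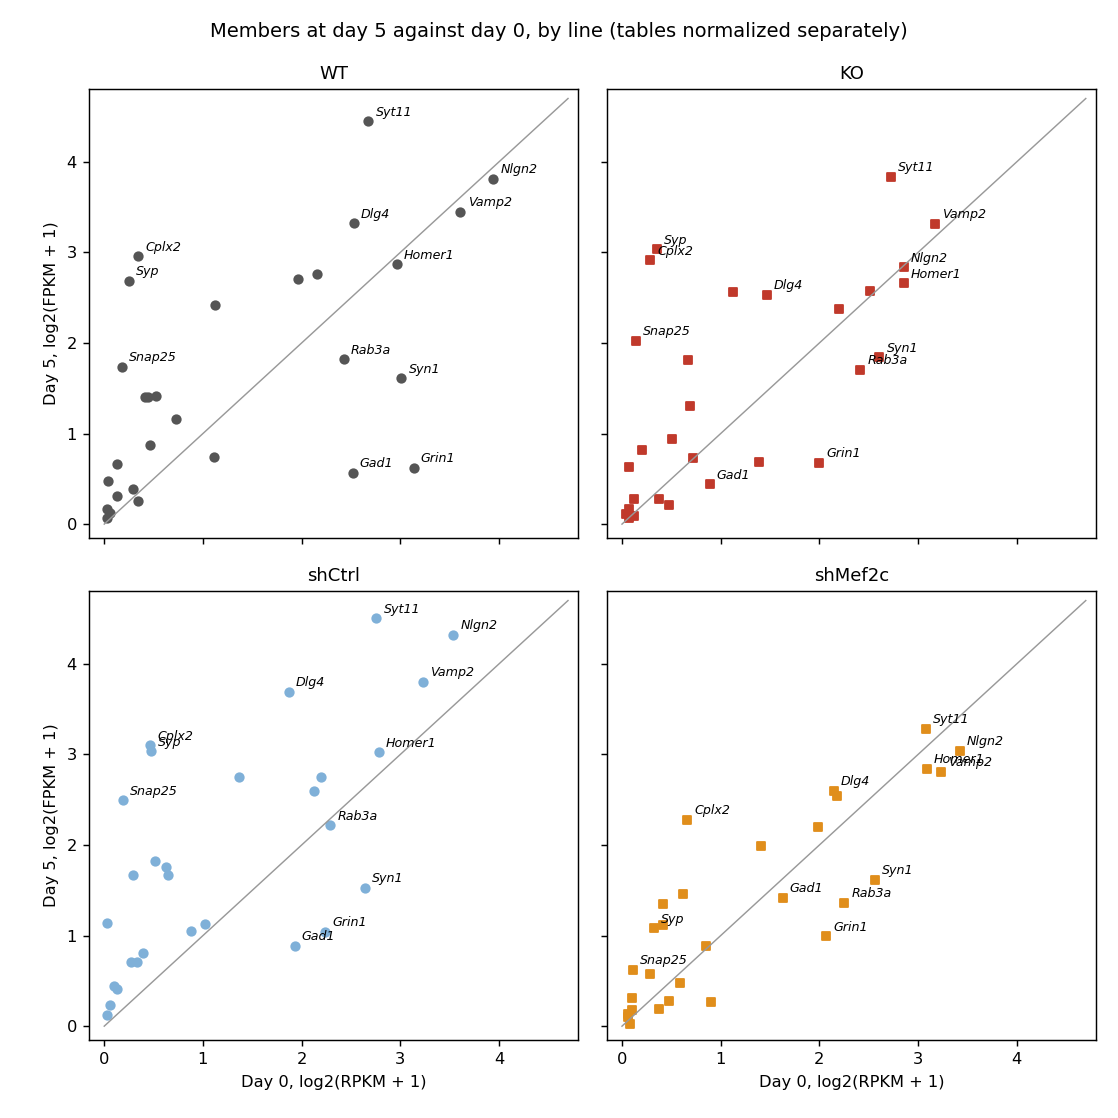
Level of each member at day 5 (log2 of FPKM + 1, y axis) against day 0 (log2 of RPKM + 1, x axis) in the 4 lines, 29 members per panel. The grey line marks equal values, and the tables were normalized separately. Cplx2 lies above the line and Grin1 below it in all 4 panels, and Syp and Snap25 lie farther from it in WT, KO and shCtrl than in shMef2c.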

How the data were processed

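RNA was purified with oligo(dT) beads per the labels' protocols, and 1 library per group was sequenced. The authors deposited expected counts (estimated counts, not whole) and FPKM for every day 5 library, per the file headers. FPKM below 0.01 do not occur in those files, and a gene missing from 1 library counts as 0 in it. The authors deposited RPKM and estimated counts of day 0 in a single table, per the file headers. The authors also deposited, for day 5, tables of log2 ratios with a false discovery rate (an adjusted p-value), made by a Poisson method per the labels. The submitters' processing notes name mm9 as the build and RSEM, Bowtie, Bowtie2, HISAT and HISAT2 as tools, without roles or versions. The sources used here do not say whether reads were counted by strand, so values of overlapping genes and near-identical copies are uncertain.

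Log2 ratios used features averaging at least 1 across the libraries compared, and a pseudocount of 1, which understates the difference of scarce genes. Single ratios are shares of rounded estimated reads with exact (Clopper-Pearson) 95% intervals, which cover counting error only. With 1 library per group no test was possible. The ratio code was tested on simulated data. The members, the gene lists and the tests were chosen with earlier results of these data known. All 30 members are named, and of the further list the 3 lowest and 3 highest per day 5 comparison (some of these are not reported here), with Rest, Rcor1, Rcor2, Mef2c and at most 3 genes of each cell type list. Alternatives were a pseudocount of 0.1, no filter, TMM factors (edgeR 4.0.16) and size factors (DESeq2 1.42.0) computed on the estimated counts, the other control library and no centring. Analyses used Python 3.11.15, pandas 2.3.3, SciPy 1.17.1 and R 4.3.3. Promoter windows and gene order came from RefSeq tables of GRCm38.p6, used for names, order and sequence only.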

Additional observations from a re-analysis of the deposited data

How the results depend on the processing

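Of 80 recomputed counts and medians over the members, 69 stayed within 1.5 times the count, or within the members' typical counting error for a median, and 11 moved. With a pseudocount of 0.1, 1 member was lower and 1 higher in KO over WT at day 5, 1 was higher in shCtrl over WT at day 5, and 2 in shMef2c at day 5 over day 0. With the other control library, KO at day 5 had 2 lower members and a median log2 ratio of -0.36, shMef2c at day 5 had 3 and a median of -0.45, KO at day 0 had 1 lower member and the library labelled shMef2c at day 0 had 1. Without a filter on low values the shMef2c median at day 5 was -0.47. TMM factors and DESeq2 size factors moved no count or median over the members, and neither did leaving out the centring between days. Of 79 single ratios recomputed with a pseudocount of 0.1, 0 reversed and 7 moved beyond their counting interval, each away from 0. No library can be left out, since each group holds 1. No paired analysis was possible because each group has 1 library. Depth limits the scarce members most, such as Gria1, Nlgn1 and Syn2 at day 5.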
